A study of Mus musculus with 136 samples.

Results

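Mouse bone marrow-derived macrophages were given lipid A, the membrane anchor of bacterial endotoxin and a ligand of TLR4, and RNA attached to chromatin was sequenced. The step between 1 h and 0.5 h of lipid A in wild-type cells is described here, that is, which genes were switched off and which were switched on while the first wave of the response gave way to the next. The 18 libraries were 9 pairs of 1 h and 0.5 h, matched by experiment and replicate number: replicates 1 to 3 of the wild type beside Nfkb1-/-, replicates 1 and 2 of the wild types beside Nfkbiz-/- and beside Bcl3-/-, and replicates 2 and 3 of the wild type beside Nfkbid-/-. They are 18 of the 136 libraries of the series. All came from unmodified mice whose strain the labels write as C57/B16, and all cells had grown for 6 days in M-CSF before lipid A. The 18 knockout libraries of the same experiments, times and replicate numbers (Nfkb1-/-, Nfkbiz-/-, Bcl3-/- and Nfkbid-/-, which lack p50 and its precursor p105, IkBz, Bcl3 or IkBNS by label) were used to ask whether the step differed without each factor. Nothing in the labels says that replicates were separate animals or cultures, so the p-values measure the spread between libraries, which may be technical.

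TLR4 acts through MAP kinases and NF-kB on genes that are already poised, and it also acts through TRIF and IRF3 on interferon-beta and on genes that carry IRF sites. Immediate-early genes such as Fos, Egr1 and Jun are transcribed within minutes of a signal in most cell types and are shut off soon after. Antiviral genes follow once IRF3 is active and once secreted interferon-beta signals back through its receptor. Chromatin-bound RNA is mostly RNA still being made, so it follows the start and the end of transcription more closely than the mRNA of whole cells, which also depends on decay.

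Each 1 h library held between 10.7 and 32.4 M reads (M, mega) and each 0.5 h library between 10.1 and 34.3 M reads. Values are RPKM over the whole gene span, introns included, as the authors deposited them. In these libraries a gene without reads carries the value of 1 read. Replicate 1 of the wild type beside Nfkbid-/- is not among the 9 pairs: its libraries had 8.14 RPKM of the nuclear RNA Malat1 at 1 h and 9.33 RPKM at 0.5 h, where the 9 pairs had 900 to 1850 RPKM at 1 h and 1090 to 2530 RPKM at 0.5 h. Of the listed markers that are in the table (7 for neutrophils, 2 for dendritic cells, 6 for lymphocytes, 4 for mast cells, 4 for erythroid cells and 5 for stroma), none reached 1 RPKM in any of the 18 libraries, and the other listed markers were not analysed here. Of the macrophage markers in the table, Csf1r, Lyz2, Mrc1, Mertk and Fcgr1 reached 1 RPKM. Reads were counted by a rule that is not given in the sources used here, so overlapping genes cannot be told apart and are named as such. Gene positions below are those of the deposited table, in the mouse build mm9.

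Of 15196 genes in the table, 2458 reached 1 RPKM in at least 9 of the 18 libraries and were tested with limma, with the pair as a block, on log2(RPKM + 0.5). The other 12738 were not tested. A gene counted as higher or lower at 1 h where its Benjamini-Hochberg adjusted p was under 0.05 and the difference was at least 2-fold. On this rule 167 genes were higher at 1 h than at 0.5 h (6.79% of those tested) and 160 were lower (6.51%). Of the 167, 141 were higher in each of the 9 pairs, and of the 160, 149 were lower in each. The 9 values at 1 h lay wholly apart from the 9 values at 0.5 h for 51 of the genes that rose and 58 of those that fell, where 6.43% of all tested genes showed such a gap in either direction. The median step over all tested genes was 0.065 (log2), and it ran from -0.057 to 0.136 over the 9 pairs. The added 0.5 understates the change of genes with low values. Just inside the 2-fold rule lay Mirlet7e with 1.004 and Tmem206 with -1.003, and just outside it Hivep3 with 0.996 and Atp6ap2 with -0.999, so the rule cuts through a continuous range. The gene lists used below were chosen with earlier results of these data known, which can favour calls within them. Counts within a list are to be read beside the shares of 6.79% and 6.51%.

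**Figure D1:**
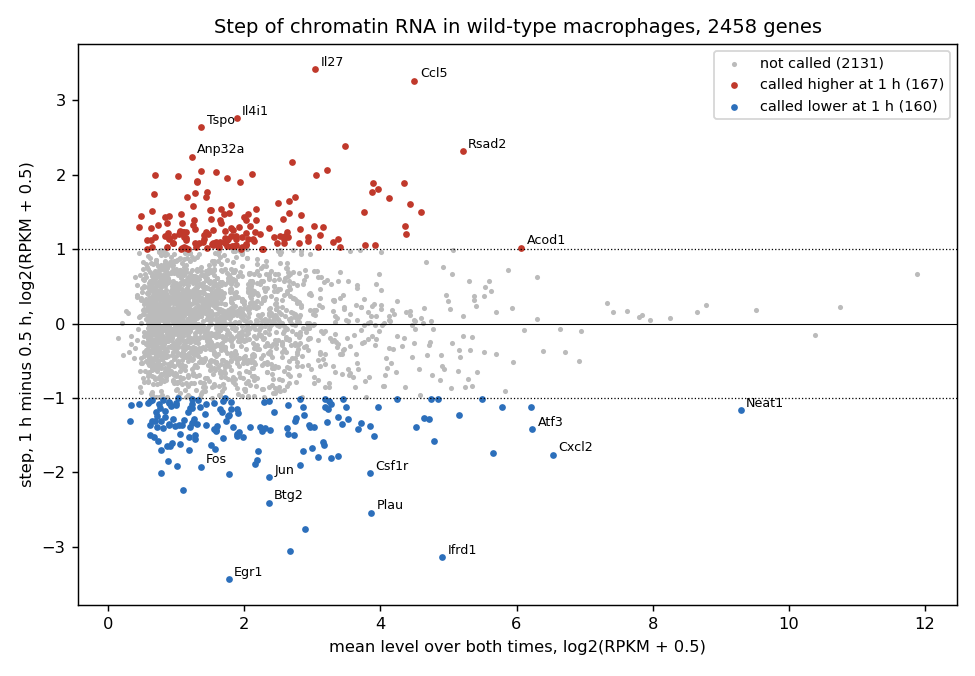
Each point is 1 of 2458 tested genes, with its mean level over 1 h and 0.5 h on the x axis and its step (1 h minus 0.5 h) on the y axis, both in log2(RPKM + 0.5). Red points are the 167 genes called higher at 1 h, blue points the 160 called lower, and dotted lines mark 2-fold. Il27 and Ccl5 stand at the top with 3.41 and 3.26, and Egr1 and Ifrd1 at the bottom with -3.44 and -3.14.

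Among the genes switched on, the cytokine and chemokine with the largest steps were Il27 and Ccl5. Il27 encodes the p28 subunit of interleukin 27, which macrophages secrete to steer T cells, and lies on chromosome 7 from 133732808 to 133738424. Its values were 11.9 to 49.1 RPKM at 1 h (median 24.5), against 1.04 to 2.61 RPKM at 0.5 h (median 2.21). No 1 h library came near the 0.5 h libraries, and the step was 3.41 ± 0.16 (log2, standard error, n = 9 pairs), a 10.7-fold rise (adjusted p = 7.8e-08). Ccl5, a chemokine that draws T cells and monocytes (chromosome 11, 83339280 to 83344020), had 40.1 to 99.3 RPKM at 1 h (median 70.4), against 1.93 to 14.9 RPKM at 0.5 h (median 8.63). Again all 1 h values lay above all 0.5 h values, and the step was 3.26 ± 0.18 (adjusted p = 1.9e-07).

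Ifnb1, the interferon-beta gene (chromosome 4, 88167928 to 88168698), rose less evenly. It had 2.40 to 33.4 RPKM at 1 h (median 5.75), against 0.897 to 4.54 RPKM at 0.5 h (median 1.93). The values of the times overlapped, 7 of 9 pairs were higher, and the step was 1.47 ± 0.41 (adjusted p = 0.0078). The pair steps of Ifnb1 ran from -0.45 in Nfkbid replicate 2 to 3.46 in Nfkbid replicate 3. Of the 9 tested genes on the cytokine list, 2 rose (Il27 and Ifnb1) and 1 fell, and the list's median step was 0.36 beside 0.065 over all tested genes. The member that fell was Tnfsf9, the ligand of the T-cell receptor 4-1BB, with 24.2 to 97.2 RPKM at 1 h and 70.0 to 151 RPKM at 0.5 h (step -1.12 ± 0.15, adjusted p = 7.2e-05). Il1b, Il1a, Il10, Csf2, Osm and Ebi3 were not called. Il1b, for example, had a median of 40.4 RPKM at 1 h and 40.7 RPKM at 0.5 h (step -0.16 ± 0.24).

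The chemokines split by gene. Of 10 tested, Ccl5 rose, Cxcl2 fell and 8 were not called, with a list median of -0.10. Over all tested genes 6.79% rose and 6.51% fell, so the number of calls does not set the list apart. Cxcl2, a neutrophil attractant (chromosome 5, 91332924 to 91334964), had 8.45 to 149 RPKM at 1 h (median 54.4), against 107 to 231 RPKM at 0.5 h (median 175). Its values overlapped between the times but were lower in each of 9 pairs (step -1.77 ± 0.28, adjusted p = 2.0e-04). The pair steps of Cxcl2 ran from -3.78 in Nfkbid replicate 2 to -0.42 in Nfkb1 replicate 3. Ccl3 and Ccl4, chemokines for monocytes and T cells, were not called, and Ccl4 had a median of 123 RPKM at 1 h and 136 RPKM at 0.5 h, a step of -0.11 ± 0.08 (adjusted p = 0.27).

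Interferon-stimulated genes made up the group with the most calls upward. Of 29 on the list 16 are in the table and 14 were tested. Of these, 8 rose and none fell (Ifit1, Isg15, Rsad2, Usp18, Gbp2, Gbp5, Cmpk2 and Parp14), and the median step of the 14 was 1.23. Over all tested genes 6.79% rose, 6.51% fell and the median step was 0.065. The list was chosen with earlier results of these data known, which can favour such a count. Rsad2, which encodes the antiviral enzyme viperin, had 27.2 to 237 RPKM at 1 h (median 72.7) and 1.30 to 34.8 RPKM at 0.5 h (median 21.3). A single 0.5 h library lay above the lowest 1 h library, and every pair was higher at 1 h (step 2.31 ± 0.27, adjusted p = 2.3e-05). Its neighbour on chromosome 12, Cmpk2, a mitochondrial nucleotide kinase, had 5.42 to 111 RPKM at 1 h (median 24.0), against 0.381 to 9.05 RPKM at 0.5 h (median 4.97), with a step of 2.39 ± 0.32 (adjusted p = 6.3e-05). Cmpk2 pairs ranged widely, from 0.25 in Nfkb1 replicate 3 to 4.35 in Nfkbid replicate 2.

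Ifit1, whose protein binds viral RNA, had 4.76 to 64.3 RPKM at 1 h and 0.324 to 6.85 RPKM at 0.5 h (step 1.99 ± 0.21, adjusted p = 1.1e-05). The guanylate-binding proteins Gbp5 and Gbp2, which act against intracellular bacteria, rose by 1.51 ± 0.18 and 1.44 ± 0.21. Isg15, a ubiquitin-like modifier, rose by 1.14 ± 0.14, Usp18, which removes it, by 1.27 ± 0.40, and Parp14, a mono-ADP-ribosyltransferase, by 1.2 ± 0.18. Usp18 had the largest adjusted p of the 8 (0.016) and was higher in 8 of 9 pairs. Mx1, another antiviral gene, had a step as large, 1.44 ± 0.61, but it ran from 0.584 to 166 RPKM over the 1 h libraries, against 0.323 to 8.50 RPKM over the 0.5 h libraries, and its adjusted p was 0.058.

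The promoters of these genes are shown because IRF and interferon-activated factors bind the interferon-stimulated response element. RefSeq promoters (build GRCm38.p6, from 250 bases before to 50 bases after the start) were matched by symbol, and 1610 tested genes had exactly 1. The motif searched was GAAANNGAAA on both strands, called ISRE-like here. It lay in 10 of 110 promoters of genes that rose (9.09%), in 4 of 107 of genes that fell (3.74%), in 4.47% of the 1610, and in 3.44% of all 32851 promoters of the table. Of the 6 called interferon-stimulated genes with such a promoter, 5 held it. The 180 bases before the start of 4 of them follow, with capitals for ISRE-like motifs and for any match to TATAAA, GGGANNNNCC (kB-like) or TGANTCA (AP-1) on either strand.
Ifit1 (chr19:34640709-34640888, plus strand): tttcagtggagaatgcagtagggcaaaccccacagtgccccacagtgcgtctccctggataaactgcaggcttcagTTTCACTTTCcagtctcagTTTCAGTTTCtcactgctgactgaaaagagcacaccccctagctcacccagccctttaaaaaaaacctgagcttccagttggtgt
Isg15 (chr4:156200819-156200998, minus strand): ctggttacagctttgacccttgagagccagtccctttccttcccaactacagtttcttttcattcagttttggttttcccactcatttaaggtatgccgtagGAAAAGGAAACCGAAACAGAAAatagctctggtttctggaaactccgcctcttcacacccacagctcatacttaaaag
Rsad2 (chr12:26456453-26456632, minus strand): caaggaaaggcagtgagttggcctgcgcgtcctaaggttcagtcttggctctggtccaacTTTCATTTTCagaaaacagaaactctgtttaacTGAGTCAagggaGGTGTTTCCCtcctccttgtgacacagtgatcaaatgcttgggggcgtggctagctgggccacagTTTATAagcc
Gbp2 (chr3:142620483-142620662, plus strand): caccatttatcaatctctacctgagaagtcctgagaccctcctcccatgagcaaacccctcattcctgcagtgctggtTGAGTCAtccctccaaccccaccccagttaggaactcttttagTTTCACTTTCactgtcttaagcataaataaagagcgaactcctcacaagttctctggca
Ifit1 holds 2 separate ISRE-like matches and Isg15 a run of 3 that overlap. Rsad2 also holds a kB-like and an AP-1 match between its ISRE-like match and its start, and Gbp2 holds an AP-1 match upstream of it. A match of letters is a description and does not show that a factor binds there. The kB-like motif did not set the groups apart by share: it lay in 28.2% of promoters of genes that rose, 26.2% of those that fell and 25.3% of the 1610.

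Signalling genes that NF-kB itself controls rose in part. Of the 5 tested NF-kB and IkB genes, Nfkb1 and Bcl3 rose and 3 were not called, where 6.79% of all tested genes rose. Nfkb1, the gene of p105 and p50 (chromosome 3, 135247618 to 135354511), had 8.77 to 27.2 RPKM at 1 h (median 22) and 3.54 to 15.2 RPKM at 0.5 h (median 9.74), with a step of 1.06 ± 0.13 (adjusted p = 4.2e-05). Bcl3, a nuclear partner of p50, rose by 1.16 ± 0.13. Nfkbia, the IkB-alpha gene and an early feedback inhibitor, had 74.4 to 118 RPKM at 1 h and 94.3 to 149 RPKM at 0.5 h, lower in each pair by less than 2-fold (step -0.39 ± 0.08, adjusted p = 0.0016). Peli1, an E3 ligase of TLR signalling, was the 1 that rose of 5 tested regulators of NF-kB and cytokine signalling. It had 9.32 to 40.1 RPKM at 1 h and 1.96 to 17.4 RPKM at 0.5 h (step 1.81 ± 0.14). Cd86, a costimulatory ligand for T cells, rose by 1.04 ± 0.10 and was the 1 called among 9 receptors and adhesion genes (list median 0.56).

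Of 8 tested effector genes 2 rose, where 6.79% of all tested genes did. Acod1, which makes itaconate, had 48.4 to 136 RPKM at 1 h, against 12.1 to 85.8 RPKM at 0.5 h (step 1.02 ± 0.19, adjusted p = 5.7e-04), and complement C3 rose by 1.09 ± 0.15. Of the later transcription factors, Batf, a partner of Jun proteins, had 0.999 to 8.37 RPKM at 1 h and 0.159 to 1.60 RPKM at 0.5 h (step 1.91 ± 0.14, adjusted p = 1.2e-06). Nfil3, a bZIP repressor, rose by 1.23 ± 0.29 in 8 of 9 pairs. Id2, an inhibitor of bHLH factors, went the other way, with 2.49 to 7.07 RPKM at 1 h, all below the 8.10 to 16.6 RPKM at 0.5 h (step -1.23 ± 0.14).

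Genes of class I antigen processing were grouped after their values were seen. Of 11 tested, 5 rose and none fell, with a median step of 0.95, beside 6.79% that rose and a median step of 0.065 over all tested genes. Grouping by values already seen favours such a count. Tapbp, the tapasin gene that loads peptides on class I molecules (chromosome 17, 34056422 to 34066235), had 16.3 to 40.8 RPKM at 1 h, against 3.13 to 9.55 RPKM at 0.5 h. Its values did not overlap and the step was 1.89 ± 0.11 (adjusted p = 3.5e-07). The immunoproteasome subunits Psmb10 and Psmb8 rose by 1.60 ± 0.13 and 1.01 ± 0.31, the proteasome activator Psme1, which overlaps Emc9, by 1.54 ± 0.15, and the peptide transporter Tap2 by 1.23 ± 0.31. Psmb8 and Tap2 were higher in 7 of 9 pairs.

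Beyond the lists, the largest rises were in genes with varied roles. Il4i1, a secreted amino acid oxidase that overlaps Il4i1b and Tbc1d17, had 3.36 to 26.2 RPKM at 1 h and 0.465 to 3.41 RPKM at 0.5 h (step 2.76 ± 0.13). Tspo, the translocator protein of the outer mitochondrial membrane (chromosome 15, 83394002 to 83404633), had 1.46 to 13.2 RPKM at 1 h, all above the 0.111 to 1.23 RPKM at 0.5 h (step 2.64 ± 0.18, adjusted p = 8.2e-07). Anp32a, an acidic nuclear phosphoprotein, had 2.39 to 6.99 RPKM at 1 h against 0.316 to 1.02 RPKM at 0.5 h, again with no overlap (step 2.24 ± 0.12). Phldb1, Fam102b, Zcchc2, Polr2g (a subunit of RNA polymerase II) and Micall2 (a Rab13 effector) likewise had all 1 h values above all 0.5 h values, with steps from 1.99 to 2.17. Fam129b, with a step of 2.06 ± 0.22, and Card19, with 2.01 ± 0.12, overlapped between the times although each rose in 9 of 9 pairs.

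**Figure D2:**
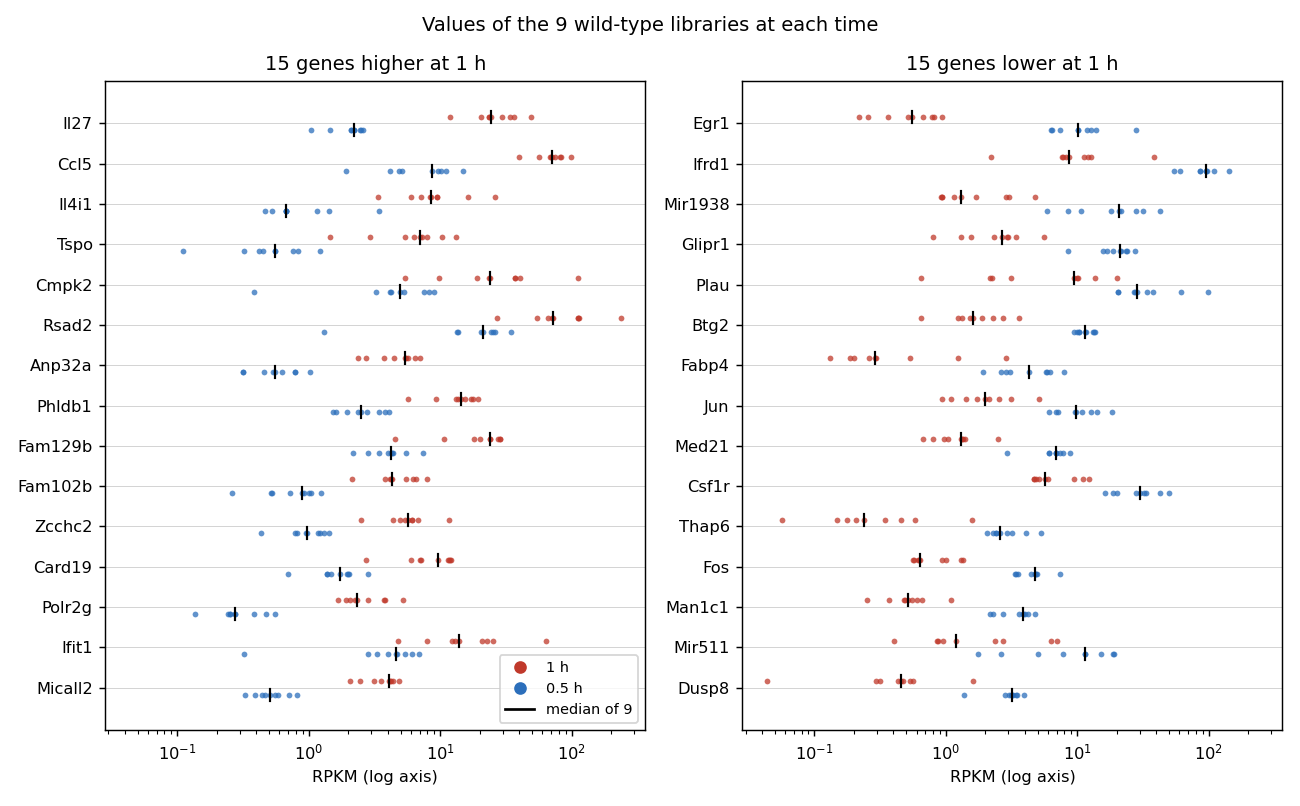
RPKM in each of 9 wild-type libraries at 1 h (red) and at 0.5 h (blue), on a log axis, for the 15 genes called higher and the 15 called lower with the largest steps that kept their direction in all 9 pairs. Black bars are medians. For Il27 the lowest 1 h library (11.9 RPKM) lies above the highest 0.5 h library (2.61 RPKM), and for Egr1 the highest 1 h library (0.938 RPKM) lies below the lowest 0.5 h library (6.32 RPKM).

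Among the genes switched off, the immediate-early genes, most of them transcription factors, stood out by number. Of 26 on the list 18 are in the table and 14 were tested. Of these, 10 fell and none rose (Fos, Jun, Egr1, Atf3, Ier2, Ier3, Ier5, Klf6, Nr4a1 and Btg2), and the median step of the 14 was -1.31. Beside this, 6.51% of all tested genes fell and their median step was 0.065. This list, too, was chosen with earlier results of these data known. Egr1, a zinc finger factor (chromosome 18, 35020860 to 35024610), had 0.218 to 0.938 RPKM at 1 h (median 0.549), against 6.32 to 28.1 RPKM at 0.5 h (median 10.2). The times did not overlap and the step was -3.44 ± 0.15, a 10.8-fold fall (adjusted p = 7.8e-08). Fos, the partner of Jun in AP-1, had 0.566 to 1.35 RPKM at 1 h and 3.38 to 7.41 RPKM at 0.5 h (step -1.92 ± 0.14). Jun had 0.930 to 5.08 RPKM at 1 h and 6.14 to 18.3 RPKM at 0.5 h (step -2.07 ± 0.14, adjusted p = 7.4e-07).

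Btg2, an antiproliferative partner of the CCR4-NOT deadenylase, had 0.650 to 3.59 RPKM at 1 h, against a narrow range of 9.44 to 13.6 RPKM at 0.5 h (step -2.41 ± 0.18, adjusted p = 1.2e-06). Nr4a1, an orphan nuclear receptor, also had no overlap between the times (step -1.38 ± 0.17). Atf3, a stress-induced bZIP factor that restrains cytokine genes, kept a higher level at 1 h than Egr1, Fos, Jun or Btg2: it had 25.8 to 97.5 RPKM at 1 h (median 40.0), against 64.4 to 217 RPKM at 0.5 h (median 141), with a step of -1.42 ± 0.15. Klf6 fell by 1.23 ± 0.11, Ier2 by 1.5 ± 0.18, Ier5 by 1.06 ± 0.14 and Ier3 by 1.02 ± 0.17 on the log2 scale, each lower in 9 of 9 pairs with overlap between the times. Not all early factors fell by 2-fold. Junb had 10.8 to 32.9 RPKM at 1 h and 17.8 to 50.3 RPKM at 0.5 h (step -0.42 ± 0.10, adjusted p = 0.0025), Fosl2 and Klf2 had adjusted p values of 0.40 and 0.86, and Mafk was higher at 1 h by 0.61 ± 0.22 (adjusted p = 0.031).

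Feedback genes of the same pathways fell in part. Of 7 tested MAP kinase phosphatases and feedback genes, Dusp4, Dusp8 and Trib1 fell and none rose (median -0.72), where 6.51% of all tested genes fell. Dusp4, which dephosphorylates ERK, had 0.476 to 12.7 RPKM at 1 h (median 4.99) and 9 to 32.6 RPKM at 0.5 h (median 17.7), with a step of -1.79 ± 0.24. Its pairs ran from -3.28 in Nfkbid replicate 2 to -0.17 in Nfkb1 replicate 3. Dusp8, a phosphatase of JNK and p38, had 0.0436 to 1.61 RPKM at 1 h and 1.37 to 3.95 RPKM at 0.5 h (step -1.85 ± 0.18), and the pseudokinase Trib1 fell by 1.36 ± 0.18. Dusp1, the best known of the family in macrophages, was lower in all pairs by less than 2-fold (step -0.66 ± 0.12, adjusted p = 4.6e-04), and Dusp2 had a step of 0.04 ± 0.16. Zfp36 and Zfp36l1, which bind AU-rich elements and speed mRNA decay, fell by 1.01 ± 0.12 and 1.29 ± 0.13. They were the 2 called of 6 decay factors (median 0.03), where 13.3% of all tested genes were called in either direction.

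The cyclic AMP response element, TGACGTCA, was searched in the same promoters, since CREB and ATF factors act on early genes. It lay in 10 of 107 promoters of genes that fell (9.35%), in 1 of 110 of genes that rose (0.909%), in 3.85% of the 1610 and in 1.79% of all promoters of the table. The CArG box, bound by SRF, lay in 4 of 107 (3.74%), 0 of 110 and 1.93% of the 1610. Of the 8 called immediate-early genes with exactly 1 promoter, Btg2 alone held the TGACGTCA sequence, and none held a CArG box in this window. The 180 bases before the start of 4 genes that fell are given, with capitals for TGACGTCA, for the CArG box and for any of the motifs above.
Dusp8 (chr7:142095285-142095464, minus strand): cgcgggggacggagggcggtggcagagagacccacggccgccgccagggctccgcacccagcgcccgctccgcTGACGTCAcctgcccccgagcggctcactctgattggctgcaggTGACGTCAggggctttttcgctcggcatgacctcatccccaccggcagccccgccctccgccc
Btg2 (chr1:134079156-134079335, minus strand): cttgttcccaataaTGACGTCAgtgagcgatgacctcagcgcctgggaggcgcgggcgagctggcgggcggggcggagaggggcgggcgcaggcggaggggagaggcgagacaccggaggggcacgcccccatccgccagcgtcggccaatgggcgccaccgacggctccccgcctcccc
Zfp36 (chr7:28379229-28379408, minus strand): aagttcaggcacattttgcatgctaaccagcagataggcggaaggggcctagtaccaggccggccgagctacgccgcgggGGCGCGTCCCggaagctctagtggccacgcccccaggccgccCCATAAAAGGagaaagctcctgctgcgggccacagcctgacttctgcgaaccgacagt
Cxcl2 (chr5:90903719-90903898, plus strand): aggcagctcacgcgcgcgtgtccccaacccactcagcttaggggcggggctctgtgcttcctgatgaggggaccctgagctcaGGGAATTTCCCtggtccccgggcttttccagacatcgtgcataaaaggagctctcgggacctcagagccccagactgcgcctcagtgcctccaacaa
Dusp8 holds TGACGTCA at 2 places, Btg2 at 1, Zfp36 holds a CArG box nearer its start than a kB-like match, and Cxcl2 holds 2 kB-like matches that overlap. No match says only that these letters are not in this window.

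Of 4 tested macrophage markers, Csf1r, Lyz2 and Mrc1 fell and Mertk was lower in all pairs by just under 2-fold (step -0.97 ± 0.08), with a median of -1.59. Among all tested genes 6.51% fell and the median step was 0.065. Csf1r, the receptor of M-CSF (chromosome 18, 61265225 to 61290793), had 4.67 to 12.4 RPKM at 1 h (median 5.73), against 16.2 to 49.8 RPKM at 0.5 h (median 30.3), with no overlap (step -2.01 ± 0.19, adjusted p = 5.4e-06). Lyz2, the lysozyme gene, fell by 1.79 ± 0.15 and Mrc1, the mannose receptor, by 1.39 ± 0.13. The summed level of the 7 markers in the table was 9.68 to 31.0 RPKM at 1 h and 30.6 to 97.1 RPKM at 0.5 h. In bulk RNA fewer cells of a type and less RNA per cell cannot be told apart. Tfec, a MITF family factor of macrophages, fell by 1.59 ± 0.20 and was the 1 called of 4 macrophage identity factors, of which Bcl6 had -0.99 ± 0.16 and Maf -0.15 ± 0.11. Siglec1 and Stab1, surface receptors of tissue macrophages that were noticed only after their values were seen, fell by 1.52 ± 0.09 and 1.39 ± 0.18.

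Several of the largest falls were in genes outside the lists. Ifrd1, a transcriptional coregulator that overlaps Mir1938 (chromosome 12, 40929715 to 40949776), had 2.22 to 38.7 RPKM at 1 h (median 8.59), against 54.1 to 144 RPKM at 0.5 h (median 95.4). No values overlapped, the step was -3.14 ± 0.32 (adjusted p = 9.1e-06), and Mir1938 inside it had -3.05 ± 0.21. Plau, the urokinase gene, had 0.654 to 20 RPKM at 1 h and 20.4 to 98.6 RPKM at 0.5 h (step -2.55 ± 0.29). Glipr1, which overlaps Krr1, fell by 2.76 ± 0.20, and Fabp4, a fatty acid carrier, by 2.24 ± 0.17. Med21, a Mediator subunit that overlaps Gm6654, fell by 2.03 ± 0.14, Thap6, which encodes a THAP-domain protein, by 2.00 ± 0.19 and Man1c1, a Golgi mannosidase, by 1.91 ± 0.10.

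Neat1, the noncoding RNA that builds paraspeckles (chromosome 19, 5842295 to 5845480), had 174 to 719 RPKM at 1 h (median 432) and 678 to 1150 RPKM at 0.5 h (median 1040). It fell by 1.17 ± 0.13 while Malat1, its neighbour, had a step of -0.15 ± 0.09 (adjusted p = 0.13). Neat1 was the 1 of 6 tested nuclear noncoding RNAs that was called. Top2a, a topoisomerase of dividing cells, fell by 1.03 ± 0.11, the 1 called of 3 tested proliferation genes.

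Genes of sterol synthesis and its regulation were also grouped after their values were seen. Of 10 tested, 5 fell and none rose, with a median step of -0.85, beside 6.51% that fell and a median step of 0.065 over all tested genes. Grouping by values already seen favours such a count. Insig1, which holds SREBP in the endoplasmic reticulum, had 1.28 to 15.5 RPKM at 1 h and 4.01 to 33.5 RPKM at 0.5 h (step -1.64 ± 0.17, adjusted p = 8.7e-06). Stard4, a sterol carrier, fell by 1.48 ± 0.13, and the enzymes Cyp51, Msmo1 and Sc5d by 1.30 ± 0.15, 1.15 ± 0.17 and 1.01 ± 0.09. Each of the 5 was lower in 9 of 9 pairs with overlap between the times. Abcg1, a cholesterol exporter, was the 1 tested gene of the list with a positive step (0.64).

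**Figure D3:**
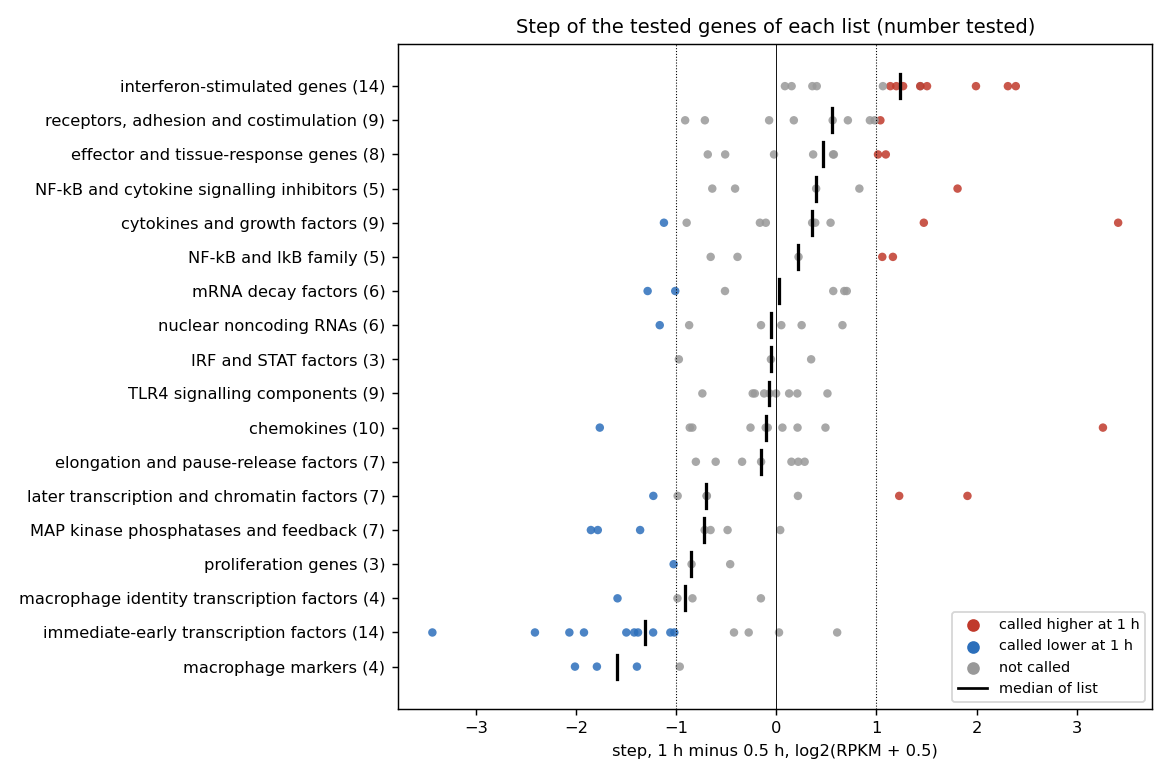
Each point is a tested gene, placed by its step (1 h minus 0.5 h, log2(RPKM + 0.5)) on the row of its list, with the number tested in brackets and a black bar at the list's median. Red points were called higher, blue points lower and grey points neither. Interferon-stimulated genes have a median of 1.23, the immediate-early list -1.31 and macrophage markers -1.59.

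Other machinery of the response gave no calls. None of 9 tested components of TLR4 signalling passed the rule (median -0.07), and Tlr4 itself had a median of 1.56 RPKM at 1 h and 1.53 RPKM at 0.5 h (step -0.00 ± 0.09). Of the elongation and pause-release factors 0 of 7 passed (median -0.15, from -0.81 for Hexim1, which inhibits P-TEFb, to 0.28). Of the 3 IRF and STAT factors tested none passed, and Irf3 was lower in every pair by just under 2-fold, with all 1 h values (1.09 to 3.67 RPKM) below all 0.5 h values (3.94 to 6.86 RPKM). Neither of 2 tested heat-shock genes passed. As 13.3% of all tested genes were called in either direction, no call among so few genes does not set these lists apart.

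MicroRNAs act by pairing their seed, bases 2 to 8, with target mRNAs, and their primary transcripts are seen in chromatin RNA. The table lists 589 microRNA loci, of which 172 were tested, and 13 rose and 15 fell. These counts lie near the shares over all tested genes, 6.79% that rose and 6.51% that fell, so they do not set microRNA loci apart. The loci are about as long as a hairpin, so reads limit their precision: Mir18, for example, rested on 9 to 26 reads a library at 1 h and 1 to 16 at 0.5 h. Members of a cluster share a transcript, and loci within a gene share its reads, so they are not independent. In the Mir17hg cluster on chromosome 14, 5 of 6 hairpins rose, and Mir17hg itself (115443611 to 115445950) had 2.65 to 5.87 RPKM at 1 h and 0.443 to 2.82 RPKM at 0.5 h (step 1.25 ± 0.15, higher in 9 of 9 pairs). The 5 were Mir18 (1.31 ± 0.18), Mir19b-1 (1.2 ± 0.23), Mir20a (1.16 ± 0.28), Mir92-1 (1.16 ± 0.26) and Mir19a (1.13 ± 0.23), while Mir17 had 0.95 ± 0.22. This cluster is known as an oncogenic one that promotes proliferation. Their mature sequences from RefSeq (GRCm38.p6), grouped by seed with the seed in capitals, are as follows.
miR-17-5p: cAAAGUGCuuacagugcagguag
miR-20a-5p: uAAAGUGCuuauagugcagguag
miR-18a-5p: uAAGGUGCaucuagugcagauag
miR-19a-3p: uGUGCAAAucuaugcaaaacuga
miR-19b-3p: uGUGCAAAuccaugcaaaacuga
miR-92a-3p: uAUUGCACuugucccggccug
The pairs miR-17 and miR-20a, and miR-19a and miR-19b, share their seeds, so the cluster carries 4 seeds.

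A second cluster that rose lies on chromosome 17, with Mir99b (17967151 to 17967221), Mirlet7e (17967315 to 17967408) and Mir125a (17967775 to 17967843). The cluster includes let-7e, of a family known for restraining proliferation, and miR-125a. Mir99b had 3.32 to 8.82 RPKM at 1 h and 0.997 to 4.23 RPKM at 0.5 h (step 1.23 ± 0.21), Mirlet7e had a step of 1.00 ± 0.15, and Mir125a, higher in 7 of 9 pairs, had 1.23 ± 0.26. Their guide strands carry 3 different seeds.
miR-99b-5p: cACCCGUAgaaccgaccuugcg
let-7e-5p: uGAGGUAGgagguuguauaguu
miR-125a-5p: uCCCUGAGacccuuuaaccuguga

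Among the microRNA loci that fell, Mir15a and Mir16-1 lie within Dleu2 on chromosome 14, which fell by 1.49 ± 0.16. Mir15a had 1.11 to 8.17 RPKM at 1 h and 5.87 to 16.7 RPKM at 0.5 h (step -1.26 ± 0.20), and Mir16-1 had -1.41 ± 0.27. The 2 share a seed and are known as suppressors of the cell cycle. On chromosome 8, Mir27a and Mir24-2 fell by 1.37 ± 0.28 and 1.01 ± 0.28, with Mir3074-2 over Mir24-2, and their neighbour Mir23a had -0.84 ± 0.26. Mir511 lies within Mrc1, and the 2 fell together.
miR-15a-5p: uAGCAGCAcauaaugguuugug
miR-16-5p: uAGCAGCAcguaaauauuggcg
miR-27a-3p: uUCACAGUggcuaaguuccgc
miR-24-3p: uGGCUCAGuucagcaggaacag
miR-511-3p: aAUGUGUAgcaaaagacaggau
Mir511 had 0.403 to 7.06 RPKM at 1 h and 1.77 to 18.9 RPKM at 0.5 h, and its reads ran from 1 to 17 a library at 1 h and from 4 to 49 at 0.5 h.

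The whole course shows where the 2 times lie. Over 0, 0.5, 1, 2 and 6 h of lipid A the median gene of the 160 that fell had mean levels of 3.62, 5.40, 1.85, 0.908 and 1.57 RPKM, and the median gene of the 167 that rose had 2.31, 1.69, 5.18, 4.70 and 4.35 RPKM. Of the 160, 51 had their highest mean (log2) level before lipid A, 101 had it with 0.5 h of lipid A, 1 with 2 h and 7 with 6 h. Of the 167, 11 had theirs before lipid A, 69 with 1 h, 56 with 2 h and 31 with 6 h. The choice of genes by the step shapes these counts, which are given as a description.

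Single genes had distinct courses over 0, 0.5, 1, 2 and 6 h. Egr1 averaged 0.108, 11.9, 0.567, 0.128 and 0.147 RPKM, a peak at 0.5 h. Csf1r averaged 24.1, 30.1, 7.11, 2.85 and 6.94 RPKM, with a high level already before lipid A. Rsad2 went on upward after 1 h, with 5.09, 20.1, 96.2, 307 and 172 RPKM. Phldb1 had its highest mean at 1 h, with 0.327, 2.67, 14, 3.09 and 0.187 RPKM, as did Ifnb1 with 0.0697, 2.19, 9.36, 1.05 and 0.185 RPKM. Anp32a dipped at 0.5 h, with 2.26, 0.599, 4.82, 4.10 and 3.99 RPKM, and Tspo and Polr2g were also lower at 0.5 h than at 0 h by their means (1.52 and 0.582 RPKM at 0 and 0.5 h for Tspo, 1.12 and 0.316 RPKM for Polr2g).

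**Figure D4:**
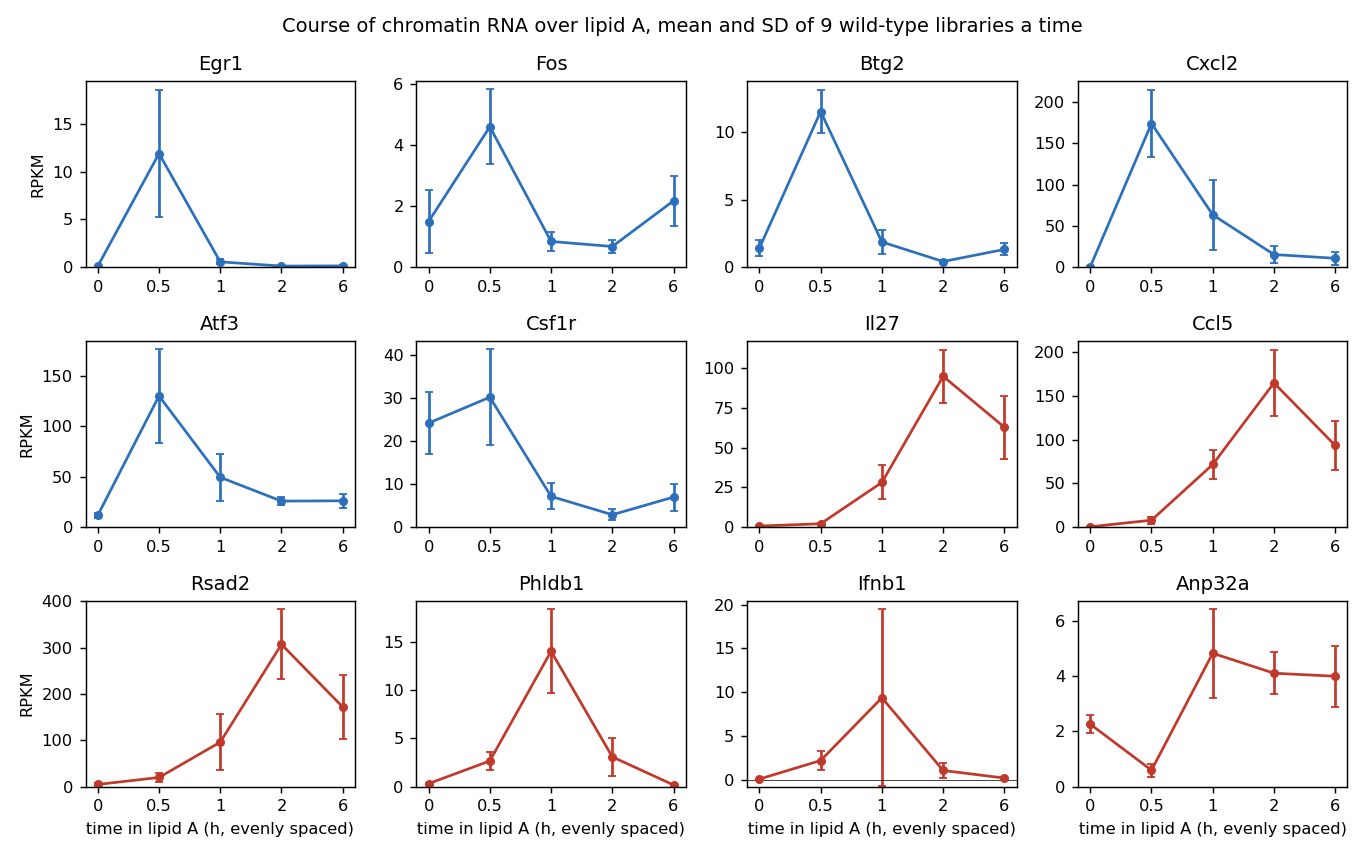
Mean and SD of chromatin RNA in RPKM over 9 wild-type libraries at 0, 0.5, 1, 2 and 6 h of lipid A, times evenly spaced, for 6 genes that fell (blue) and 6 that rose (red) between 0.5 and 1 h. Egr1, Fos, Btg2, Cxcl2 and Atf3 have their highest mean at 0.5 h, Phldb1 and Ifnb1 at 1 h, and Il27, Ccl5 and Rsad2 at 2 h.

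Libraries outside the 9 pairs, with 1 library a time and so no test, gave the same measure. In wild-type macrophages pretreated with DMSO, the vehicle of an ERK inhibitor experiment, chromatin RNA at 60 min was set against 30 min. Of the 167 genes that rose, 136 were at least 2-fold higher at 60 min (16.1% of all tested genes were), and of the 160 that fell, 104 were at least 2-fold lower (7.08% of all tested genes were). This experiment also has an earlier time. Over 0, 15, 30 and 60 min Egr1 had 0.111, 51.6, 22 and 0.649 RPKM, Fos 3.2, 49.5, 9.83 and 0.874 RPKM, and Jun 4.25, 59.9, 21.1 and 1.62 RPKM. These 3 factors were thus highest at 15 min and already lower at 30 min. Cxcl2 had 0.327, 32.4, 81.9 and 38.0 RPKM and Ifrd1 1.72, 36.8, 80.5 and 5.79 RPKM, both highest at 30 min. Il27 had 0.166, 0.0993, 0.637 and 13.6 RPKM and so had its highest value of these at 60 min.

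In replicate 1 of the wild type beside Nfkbid-/-, which stands apart as described above, 25 of the 167 genes were at least 2-fold higher at 1 h (4.11% of all tested genes) and 14 of the 160 at least 2-fold lower (1.46%).

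With TNFa in place of lipid A, chromatin RNA of wild-type cells was measured in 1 library a time. Of the 167 genes, 29 were at least 2-fold higher at 1 h than at 0.5 h (4.07% of all tested genes were), and of the 160, 56 were at least 2-fold lower (9.68% of all tested genes were). Egr1 had 0.112 RPKM at 1 h and 2.28 RPKM at 0.5 h of TNFa, Cxcl2 2.61 and 41.0 RPKM, and Ifrd1 3.11 and 18.8 RPKM. Of the antiviral and chemokine genes, Rsad2 had 1.34 RPKM at 1 h and 2.91 RPKM at 0.5 h of TNFa, and Ccl5 0.453 and 0.279 RPKM. Whether the responses to lipid A and TNFa differ was not tested.

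The mRNA series of the same study, has 1 library a time as well. It was taken as whole-cell RNA from its name, the study's design and the scale of its values, but the extraction text of its labels describes chromatin RNA, so which fraction it holds is not certain. Of the 160 genes that fell in chromatin RNA, 29 were at least 2-fold higher at 1 h than at 0.5 h in mRNA (7.49% of all tested genes were) and 8 were at least 2-fold lower (2.48% were). The 29 include the microRNA loci Mir191, Mir3074-2, Mir5114, Mir24-2 and Mir3103. Their mRNA value at 1 h was 1 divided by the span in kb. Mir24-2, for example, had 9.35 RPKM over 107 bp at 1 h and 0.823 RPKM at 0.5 h. Such a value looks like a fill for loci without reads, so these rises are not read as RNA. The shares over all tested genes may include more of them. Among the 8 were Egr1, Btg2, Jun, Fos and Ier2. Fos, for example, had 100 RPKM of mRNA at 1 h and 336 at 0.5 h, and Ier2 had 125 and 478. In contrast, Cxcl2 mRNA stood at 2880 RPKM at 1 h and 1070 at 0.5 h, Tnfsf9 mRNA at 1430 and 459, Tfec mRNA at 92.6 and 11.4, and Dusp4 mRNA at 260 and 116, while the chromatin RNA of each fell. Of the 167 genes that rose in chromatin RNA, 22 were at least 2-fold higher in mRNA and 5 at least 2-fold lower, with a median of -0.09 beside -0.04 over all tested genes. The 5 were the short loci Mir92-1, Mir20a, Mir19a, Mirlet7e and Snord53. At 0.5 h the mRNA value of the microRNA loci among them was again 1 divided by the span in kb. For Mir92-1 that was 12.5 RPKM over 80 bp. The falls of these microRNA loci are therefore not read as falls of RNA. Among the 22 were Ccl5 with 235 RPKM at 1 h and 13.8 at 0.5 h, Gbp5 with 27.0 and 1.05, and Ifnb1 with 34.7 and 0.343. Tspo mRNA had 216 RPKM at 1 h and 266 at 0.5 h beside its 6.22-fold rise in chromatin RNA.

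The step was then set against the same step in the knockouts, with limma on the differences within pairs. Before that, the targeted genes were read in the libraries. In the libraries labelled Nfkb1-/-, Nfkb1 RNA over its whole span was 7.92, 21.3 and 16.1 RPKM at 1 h, against 8.77, 24.0 and 17.1 RPKM in wild type at 1 h. At 0.5 h it was 2.49, 9.27 and 7.48 RPKM in the libraries labelled Nfkb1-/- and 3.54, 11.3 and 7.77 RPKM in wild type. Bcl3 RNA was 20.2 and 20.6 RPKM at 1 h in the libraries labelled Bcl3-/- and 16.4 and 18.1 RPKM in wild type. At 0.5 h it was 9.89 and 11.4 RPKM in the libraries labelled Bcl3-/- and 6.08 and 5.84 RPKM in wild type, higher in the knockout at both times. A count over the whole span cannot show the loss of a small part of a gene, so these values do not check the genotypes, which are those of the labels. Nfkbiz and Nfkbid were not analysed here.

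In the libraries labelled Nfkb1-/-, 11 genes had a smaller (or more negative) step than in wild type (0.448% of 2458) and 1 had a larger one (0.0407%). Micall2 had 0.116, 0.0948 and 0.346 RPKM at 1 h and 0.391, 0.194 and 0.335 RPKM at 0.5 h in Nfkb1-/-, against 2.07, 4.35 and 3.14 RPKM at 1 h and 0.329, 0.390 and 0.512 RPKM at 0.5 h in wild type. The difference of the steps, Nfkb1-/- minus wild type, was -2.22 ± 0.21 (adjusted p = 1.1e-04). Rac2, a small GTPase of the NADPH oxidase, had 0.472, 1.09 and 1.26 RPKM at 1 h and 0.679, 1.74 and 2.42 RPKM at 0.5 h in Nfkb1-/-, against 4.54, 11.9 and 7.21 RPKM at 1 h and 1.55, 2.96 and 2.95 RPKM at 0.5 h in wild type (difference -1.94 ± 0.24, adjusted p = 0.0013). For both genes the 1 h values of Nfkb1-/- lay below every wild-type value at 1 h.

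Il4i1 had 0.322, 0.414 and 0.620 RPKM at 1 h in Nfkb1-/- and 7.20, 8.50 and 3.36 RPKM in wild type, with 0.5 h means of 0.285 and 0.625 RPKM in the same order (difference of steps -2.25 ± 0.36, adjusted p = 0.011). C3 had means of 1.96 RPKM at 1 h and 4.35 RPKM at 0.5 h in Nfkb1-/-, against 10.4 RPKM at 1 h and 4.68 RPKM at 0.5 h in wild type. Its steps differed by -1.96 ± 0.36 (adjusted p = 0.028). Fam107b, a gene that was not called in wild type, differed by -1.67 ± 0.33 (adjusted p = 0.037). Of the 11, Micall2, Rac2 and Trpm4 passed in each of 6 fits that left out 1 replicate pair, Il4i1 in 3, C3 in 1 and Fam107b in none.

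Egr1 was the gene with the larger step, that is, the smaller fall on the log2(RPKM + 0.5) scale. It had 0.0685, 0.170 and 0.189 RPKM at 1 h and 0.981, 1.11 and 1.08 RPKM at 0.5 h in Nfkb1-/-, against 0.673, 0.362 and 0.815 RPKM at 1 h and 14, 11.8 and 10.2 RPKM at 0.5 h in wild type. For Egr1 the difference of steps was 2.21 ± 0.42 (adjusted p = 0.028), and it passed in 1 of the 6 fits with a pair left out and not with a pseudocount of 0.1. The values of Egr1 in Nfkb1-/- at 1 h lie below the added 0.5, which shortens its fall there: the means were 0.143 RPKM at 1 h and 1.06 RPKM at 0.5 h in Nfkb1-/-, against 0.617 and 12.0 RPKM in wild type. The level of Egr1 at 0.5 h was below wild type in all 3 replicates.

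The own step was at least 2-fold upward in the libraries labelled Nfkb1-/- for 69 of the 167 genes (4.39% of all tested genes), against 109 in the wild type beside them, and at least 2-fold downward for 60 of the 160 (3.86%), against 118 in wild type. In Nfkbiz-/- the counts were 122 upward (8.10%) and 122 downward (6.63%), against 149 and 130 in wild type. In Bcl3-/- they were 154 upward (12.1%) and 86 downward (4.03%), against 149 and 148 in wild type. In Nfkbid-/- they were 129 upward (8.75%) and 143 downward (8.50%), against 135 and 151 in wild type. The genes were called on these wild-type libraries, which favours the wild-type counts, so they are a description. The median difference of the step, knockout minus wild type, was -0.28 for the 167 and 0.32 for the 160 in Nfkb1-/- (0.05 over all tested genes), and 0.11 and 0.40 in Bcl3-/- (0.25 over all). It was -0.02 and 0.07 in Nfkbiz-/- (0.03 over all) and -0.01 and 0.04 in Nfkbid-/- (0.03 over all), and the same selection bears on each.

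In the Nfkbiz experiment 1 gene was called (0.0407%): Lrrc25, a leucine-rich repeat membrane protein, had 0.987 and 0.896 RPKM at 1 h and 1.86 and 1.91 RPKM at 0.5 h in Nfkbiz-/-, against 16.3 and 13.3 RPKM at 1 h and 3.93 and 2.67 RPKM at 0.5 h in wild type (difference -2.75 ± 0.42, adjusted p = 0.034). The call did not hold in any of the 4 fits that left out 1 replicate pair. In the Bcl3 and Nfkbid experiments limma called no gene in either direction, and at an unadjusted p under 0.05 with a 2-fold difference it gave 8 larger and 7 smaller for Bcl3-/- and 8 and 3 for Nfkbid-/-. With 2 pairs a group, a difference of moderate size could be missed.

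**Figure D5:**
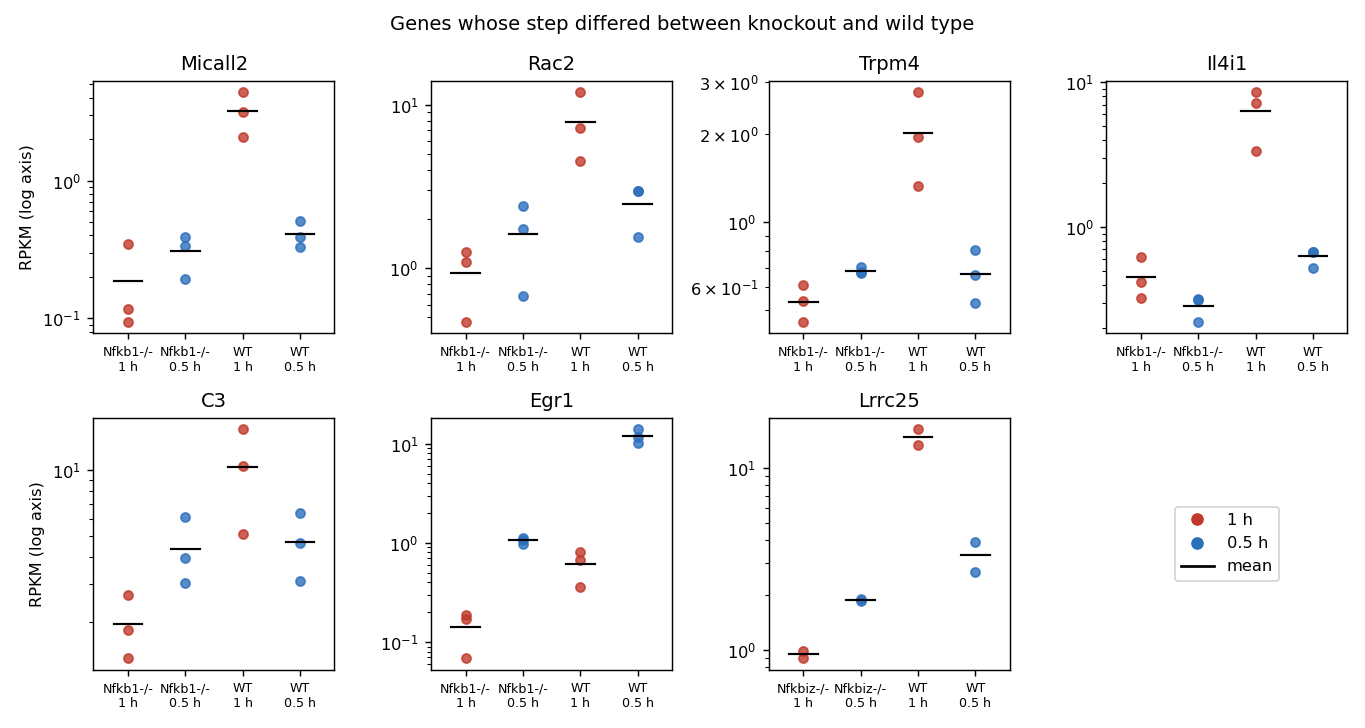
RPKM on a log axis in single libraries at 1 h (red) and 0.5 h (blue), knockout on the left of wild type in each panel, with bars at the means. Micall2, Rac2, Trpm4, Il4i1, C3 and Egr1 are from the Nfkb1 experiment (3 replicates) and Lrrc25 from the Nfkbiz experiment (2 replicates). For Micall2 the highest Nfkb1-/- library at 1 h (0.346 RPKM) lies below the lowest wild-type library at 1 h (2.07 RPKM).

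Span did not enter the test. Genes that rose had a median span of 17 kb and genes that fell 11.9 kb, beside 14.9 kb over all tested genes. By span the share of genes that rose ran from 5.31% (under 5 kb) to 7.92% (20 to 50 kb), and the share that fell from 5.45% (20 to 50 kb) to 7.55% (5 to 20 kb). The 184 genes over 100 kb had a median step of -0.083.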

How the data were processed

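The authors deposited 1 table of RPKM values (reads scaled to gene length and library depth) for 15196 genes with mm9 positions. HISAT2, SAMtools and mm9 are named per the submitters' processing notes, without versions, and the counting rule is not given in the sources used here. The deposited RPKM of the chromatin libraries were whole multiples of 1 read over the gene span, within 0.02 for 100% of values of up to 30 reads, which gave the depths. The libraries came from a stranded kit, per the labels' protocols. Short loci and low values are limited by counting, and other genes by the spread between libraries.

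For the step, log2 values entered limma (version 3.58.1, under R 4.3.3; linear fit and moderated statistics with a trend), computed as log2(RPKM + 0.5) over genes with at least 1 RPKM in at least 9 of 18 libraries, with the pair as block, adjusted after Benjamini and Hochberg. The fit was tested on simulated data. After removal of the group means, libraries of the same experiment and number correlated at 0.33 to 0.83, so numbers were taken as pairs. Steps of the knockouts were compared on differences within pairs over 8 means that share 1 spread. Named genes were the 15 called genes in each direction with the largest steps that kept direction in 9 of 9 pairs, all called genes of the lists, and up to 5 called genes per knockout and direction. The members and lists were chosen with earlier results of these data known. Alternatives were other pseudocounts, filters, scalings, blocks, and fits without or within single experiments. Promoter and microRNA sequences are from RefSeq (GRCm38.p6), matched by symbol, and no position was moved between builds.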

Additional observations from a re-analysis of the deposited data

Results flagged for a closer look

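Among 62 named genes, 2 had 1 of 9 pairs far from the others, where about 1 in 20 such groups would by chance, so the number is no excess. Fam129b had a step of 0.35 in Nfkbid replicate 2, against 1.62 to 2.69 in the other pairs. Gbp2 had 3.06 in the same pair, against 0.24 to 1.61 in the others. The ranges of pair steps given above for Ifnb1, Cxcl2, Cmpk2 and Dusp4 each had an end in this pair as well. Why this pair lay at the ends was not tested.

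A step that differed between knockout and wild type by the test of the difference itself was seen for 13 genes. In the Nfkb1 experiment the differences (Nfkb1-/- minus wild type, log2) were -2.25 for Il4i1, -2.22 for Micall2, -1.96 for C3, -1.94 for Rac2, -1.67 for Fam107b, -1.54 for Fhl3, -1.34 for Myo1g, -1.27 for Trpm4, -1.20 for Cd81, -1.19 for Fam49a and -1.11 for Slc25a10, and 2.21 for Egr1. In the Nfkbiz experiment it was -2.75 for Lrrc25.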

How the results depend on the processing

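None of 62 named genes changed direction under any alternative, but the way they were chosen largely fixed this. Many were named because their step kept its direction in every pair. For those genes, a fit on fewer of the same pairs could not reverse the sign. The rest were chosen from calls that used these same libraries. The lack of reversals is therefore not a test of how robust the directions are. Of 1717 single values 1584 kept the call and 133 lost it, 62 of them in the fit of the Nfkbid experiment alone. The 167 genes that rose and 160 that fell became 106 and 114 with a pseudocount of 1 and 74 and 87 with a filter of 3 RPKM, where the median step of all genes tested was -0.017. The Nfkb1 experiment alone gave 110 genes that rose, and the Nfkbid experiment alone (2 pairs) gave 0 and 0 by limma, with 171 and 216 at an unadjusted p under 0.05. Leaving out 1 pair gave 153 to 188 genes that rose and 147 to 191 that fell, and medians of 0.052 to 0.075. With the tenth pair, Nfkbid replicate 1, the counts were 135 and 136.

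Without the replicate block the counts were 167 and 160 with the experiment as a term. In the knockout comparison no replicate block left 1 smaller and 0 larger step in Nfkb1-/- and 0 in Nfkbiz-/-. For Nfkb1-/- the 11 smaller steps became 19 with libraries centred on the median, 6 with a pseudocount of 1 and 6 with the experiment fitted alone. Leaving out a pair gave 3 to 8, the lowest without wild-type replicate 2 and the highest without wild-type replicate 3. The 1 larger step became 0 with a pseudocount of 0.1 and 2 with a filter of 3 RPKM, and it was 0 to 1 with a pair left out. For Nfkbiz-/- the 1 smaller step became 0 after centring and 0 without any of its 4 pairs. The cause of these changes was not tested.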
